A study of Mus musculus with 2 samples.

Results

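The Mir21 family comprised 3 miRNA genes, Mir21a, Mir21b and Mir21c, of the 2202 miRNA genes counted. They were chosen by their GENCODE M21 names alone, matched from the Ensembl identifiers in the deposited tables, and all 3 were present. The cells were myotubes of the C2C12 line, mouse myoblasts that came from the injured thigh muscle of C3H mice and whose cells fuse into multinucleated fibres in culture. The series held 1 group, C2C12 cells differentiated for 72 h, with 2 small RNA libraries labelled biological replicates 1 and 2 and taken from separate biosamples of this 1 line. No treatment, no undifferentiated culture and no second line was among the samples, so levels were compared between miRNA genes and between the 2 libraries, and no change with differentiation could be measured.

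A miRNA is cut from a hairpin in a longer transcript, and the mature strand then guides the silencing of mRNAs that pair with its seed, bases 2 to 8 from its 5′ end. miR-21 is one of the best known miRNAs of growing, injured and inflamed tissue and of many tumours. Its established targets include the mRNAs of Pdcd4, an inhibitor of translation, and Spry1, an inhibitor of growth factor signalling. Mir21a is the mouse gene that corresponds to the single human MIR21 gene, which is transcribed from its own promoter near the end of the gene for Vmp1, a membrane protein of the endoplasmic reticulum that acts in autophagy.

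The mature sequences of the family are shown because they decide which reads can be told apart and which products share a seed. RefSeq entries on GRCm38.p6 matched all 3 genes, with both hairpin arms for Mir21a and 1 mature product each for Mir21b and Mir21c. The seed is in capitals.
miR-21a-5p: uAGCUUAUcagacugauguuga
miR-21c: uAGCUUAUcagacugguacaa
miR-21b: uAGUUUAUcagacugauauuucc
miR-21a-3p: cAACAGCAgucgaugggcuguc

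Shared seeds split the family. The seed AGCUUAU was held by miR-21a-5p and miR-21c, and by no other of the 1738 mature miRNAs in the RefSeq table. The seed of miR-21b, AGUUUAU, was held by no other mature miRNA there, and neither was AACAGCA, the seed of miR-21a-3p. Counted from 1 at the 5′ end and aligned without gaps to miR-21a-5p, miR-21b carried the differences C4U, G18A, G21U and A22C, the first of them inside the seed. In miR-21c the differences were A16G, G18A, U19C, U20A and G21A, all in the 3′ part. The longest identical run was 15 bases between miR-21a-5p and miR-21c (uagcuuaucagacug) and 13 bases between miR-21a-5p and miR-21b (uuaucagacugau). Reads that extend past those runs differ between the members.

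The genes also differ in where they lie. On mm10, Mir21a (ENSMUSG00000065455.1) occupies chr11:86584067-86584158 on the minus strand. The hairpin lies within the 3′ untranslated part of an exon of Vmp1 on the same strand, 202 bases before the end of that gene, in 1 of its 8 annotated transcripts. Mir21b (ENSMUSG00000098315.1), at chr3:29636744-29636851 on the plus strand, lies in an intron of Egfem1 on the same strand in 5 of 7 transcripts. Mir21c (ENSMUSG00000099326.1), at chr8:128278148-128278225 on the minus strand, overlaps no other annotated gene, and the nearest protein-coding gene is Nrp1, 80379 bases away on the opposite strand.

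The predicted folds of the hairpins differed in stability. RNAfold gave the 92-base Mir21a hairpin a minimum free energy of -46.2 kcal/mol, or -0.502 kcal/mol per base. The 108-base Mir21b hairpin had -25.3 kcal/mol (-0.234 per base) and the 78-base Mir21c hairpin had -23.5 kcal/mol (-0.301 per base). The median over 1005 RefSeq mouse miRNA hairpins was -0.406 per base. A lower, more stable value than that of the family member was found in 15.5% of these hairpins for Mir21a, 97.6% for Mir21b and 88.4% for Mir21c. In the folds 19 of 22 bases of miR-21a-5p and 21 of 22 of miR-21a-3p were paired, against 16 of 23 for miR-21b and 12 of 21 for miR-21c. These are predictions from sequence and say nothing of whether a hairpin is processed.

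The libraries held 7581366 reads on the sense strand of miRNA genes in replicate 1 and 9865298 in replicate 2, which was 49.4% and 53.5% of all reads. Levels are given as CPM, the reads of a gene scaled to a total of 1e+06 miRNA reads, without division by gene length, since the reads come from mature strands of similar length (21 to 26 bases for the 19 of 22 genes set beside each other by rule that have a RefSeq mature entry). A level of 3 reads, taken here as the most that a count of 0 allows, came to 0.396 CPM for replicate 1 and 0.304 CPM for replicate 2. Multimapping reads, kept outside the genes by the authors, were 22.0% and 17.9% of all reads. Muscle markers were present: the 9 listed genes held 35.5% and 42.8% of the miRNA reads of replicates 1 and 2, nearly all from Mir206, and none was at 0. The Mir1a and Mir133a copies stood at 1.01 to 4.22 CPM, in counts that leave out multimapping reads.

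Mir21a was, in counts that leave out multimapping reads, one of the most abundant miRNA genes of the myotubes. It had 624072 reads in replicate 1 and 389691 in replicate 2, or 82317 and 39501 CPM. The shares of miRNA reads were 8.23% (95% exact Clopper-Pearson interval 8.21% to 8.25%) and 3.95% (3.94% to 3.96%). The mean was 60909 ± 30275 CPM (SD, n = 2), so the SD came to 49.7% of the mean. The intervals, which cover counting error of reads only, were far narrower than the gap between the libraries. The tables count reads per gene and do not divide them between miR-21a-5p and miR-21a-3p.

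Mir21b and Mir21c were at the edge of detection. Each had 2 reads in replicate 1 and 0 in replicate 2. Those 2 reads amount to 0.264 CPM, with an exact 95% Poisson interval of 0.0319 to 0.953 CPM, and lie under the level of 3 reads. The absence of reads in replicate 2 allows up to 0.304 CPM for each gene by the level of 3 reads, and 0.374 CPM by the exact 95% Poisson interval. In replicate 1 there were 312036 Mir21a reads for every read of Mir21b and as many for every read of Mir21c. The origin of these few reads was not tested, and the deposited tables give no read sequences. Of the 2202 genes, 24 had this same pair of counts, 2 and 0, and 192 genes had 1 to 3 reads in replicate 1.

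**Figure D1:**
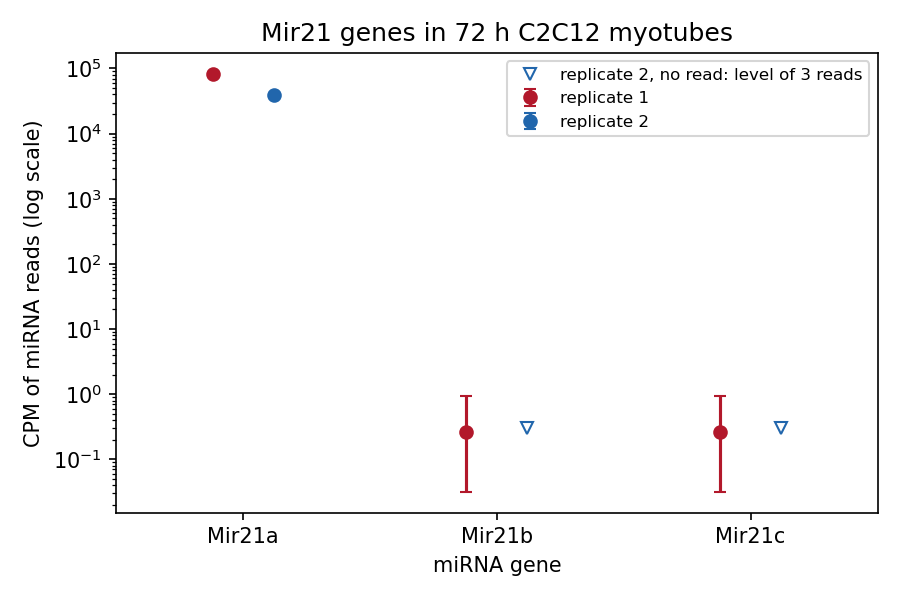
Levels of the 3 Mir21 genes in CPM (log axis), with replicate 1 in red to the left of replicate 2 in blue. Bars are exact 95% Poisson intervals of the read counts, smaller than the points for Mir21a, and open triangles mark the level of 3 reads where a library had none; Mir21a stands at 82317 and 39501 CPM and the other genes below 1 CPM.

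The family signal was therefore that of Mir21a. Mir21b and Mir21c together made up 4 of 624076 family reads in replicate 1, a share of 0.000641% (95% exact Clopper-Pearson interval 0.000175% to 0.00164%). In replicate 2 they made up 0 of 389691, with an upper limit of 0.000947% by the same kind of interval. With 2 libraries a paired exact permutation test cannot give a p below 0.5, so the members were not tested against each other over libraries. None of the 3 genes had a read on the opposite strand in either library, and the counts made without regard to strand were identical to those on the gene's strand. Among all genes, 69 had opposite-strand reads in replicate 1 and 67 in replicate 2.

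No annotated transcript outside these loci held the same mature sequences. Among 141767 GENCODE M21 transcripts searched on both strands, the full miR-21a-5p and miR-21a-3p sequences occurred in Mir21a itself and in Vmp1, whose transcript contains the hairpin. The miR-21b and miR-21c sequences each occurred in their own gene only. The first 18 bases of each gave the same genes. The search covered annotated transcripts and not the genome, and the loss of Mir21a reads to multimapping was not measured.

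**Figure D2:**
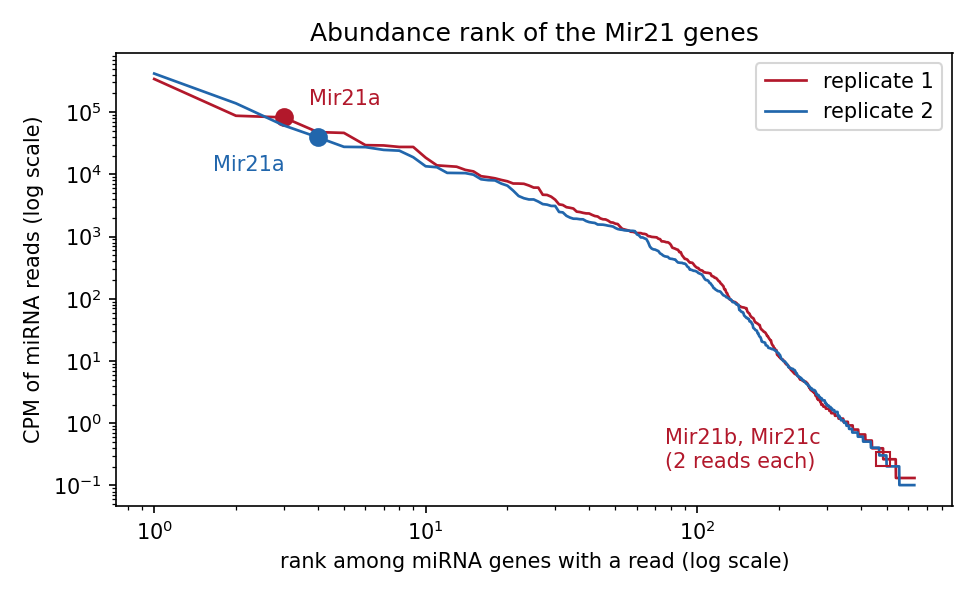
CPM of every miRNA gene with a read against its rank, both on log axes, with a line for replicate 1 (red) and replicate 2 (blue). Filled circles mark Mir21a at rank 3 in replicate 1 and rank 4 in replicate 2, and the open square marks Mir21b and Mir21c with 2 reads each in replicate 1.

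In the order of levels Mir21a ranked 3 of 2202 in replicate 1, 4 in replicate 2 and 3 by mean CPM. The ranks leave out multimapping reads, which were 5.41 and 8.46 times the reads of Mir21a in replicates 1 and 2. Genes with near-identical copies may therefore be ranked too low. Above Mir21a stood Mir206, the skeletal muscle miRNA, and Mir378a, a miRNA of energy metabolism hosted by Ppargc1b. Other Mir378 genes are close to Mir378a in sequence, so its count is uncertain. The log2 ratio of Mir21a over Mir206 was -2.05 in replicate 1 and -3.40 in replicate 2, and the ranges of the 2 genes did not overlap. Over Mir378a it was -0.09 and -1.81. Mir21a at 82317 CPM and Mir378a at 87515 CPM were thus close in replicate 1, while in replicate 2 they stood at 39501 and 138481 CPM. The ranges of this pair did not overlap either, by a margin smaller than the SD of each gene.

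Below Mir21a by mean CPM came Mir22, a miRNA of muscle and heart, and Mir143, a miRNA of smooth muscle and fibroblasts. The log2 ratio of Mir21a over Mir22 was 0.78 in replicate 1 and -0.63 in replicate 2, so the order of these genes was reversed between the libraries (0.08 ± 1.00, SD, n = 2). Over Mir143 it was 0.83 and 0.67 (0.75 ± 0.11, SD, n = 2). The ranges of Mir21a and Mir143 overlapped across libraries, since Mir143 had 46403 CPM in replicate 1, yet Mir21a was higher in each library. Its place relative to Mir22 was not resolved by 2 libraries.

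Mir21a was higher in replicate 1 than in replicate 2. After scaling with TMM, edgeR's trimmed-mean factors for library composition, the log2 ratio of replicate 1 over replicate 2 was 1.03, a 2.04-fold difference. An exact two-sided binomial test of the reads gave an adjusted p below the range that the software can hold (Benjamini-Hochberg over 415 genes with 10 or more reads). This test compares 2 libraries of 1 group for more than counting error, and it does not compare conditions. By the same test, 55.7% of all genes tested differed, 30.4% with the higher level in replicate 1 and 25.3% with the higher level in replicate 2. Among the 65 genes that averaged at least 1000 CPM, 98.5% differed and 53.8% were called higher in replicate 1, so passing the test does not set Mir21a apart. Mir21b and Mir21c had too few reads to be tested.

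The size of the difference was on the large side for an abundant gene. Of the same 65 genes, 8 had a larger ratio than Mir21a and 11 differed 2-fold or more, with a median absolute log2 ratio of 0.46. Their log2 ratios ran from -0.92 to 2.61 with a median of 0.15. Among the 20 most abundant genes, the SD of Mir21a relative to its mean (49.7%) was exceeded by that of Mir322 alone (50.7%). The common coefficient of variation that edgeR estimated from the same 2 libraries was 0.435 over 274 genes at 2 CPM or more in both.

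The 3 genes of that abundance with ratios nearest to that of Mir21a were Mir221, Mir322 and Mirlet7i. Mir221, a miRNA of proliferating cells, had 3915 and 1894 CPM in replicates 1 and 2, a log2 ratio of 1.02. Mir322, a miRNA induced in myogenic differentiation, had 27578 and 13017 CPM, a log2 ratio of 1.05. Mirlet7i, a member of the let-7 family, had 27586 and 13491 CPM, a log2 ratio of 1.00. All 3 lay within 0.03 of Mir21a on the log2 scale, a likeness over 2 libraries only. They lie on chromosomes X and 10, away from Mir21a.

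**Figure D3:**
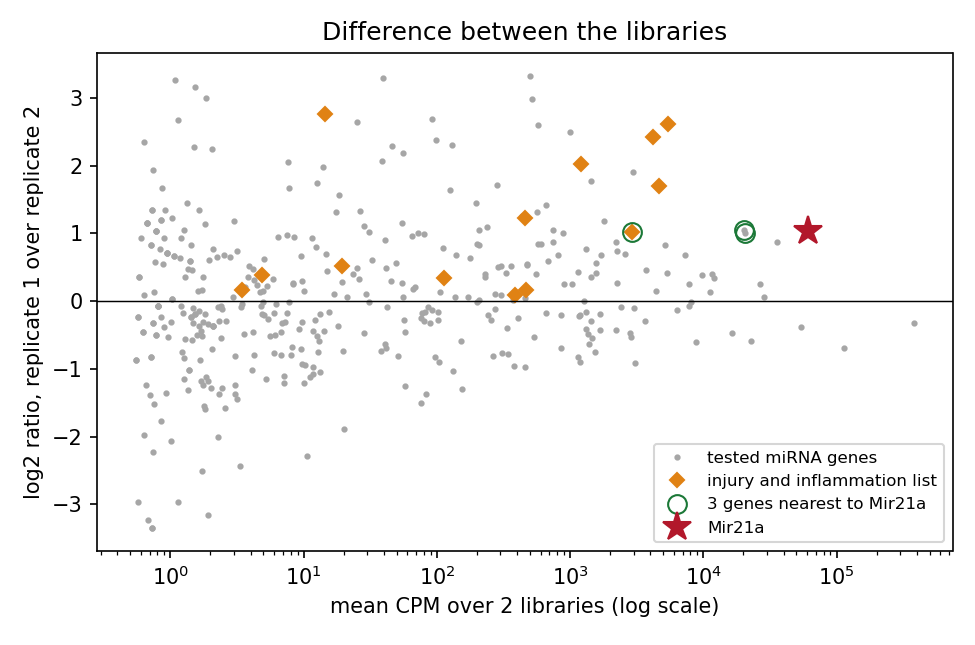
Log2 ratio of replicate 1 over replicate 2 after TMM scaling (vertical axis) against mean CPM (log axis) for the tested miRNA genes with reads in both libraries. Mir21a (red star) lies at 1.03 with Mir221, Mir322 and Mirlet7i (green circles) at the same height, and the injury and inflammation list (orange diamonds) lies above 0 for every tested member.

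The miRNA genes nearest to Mir21a on chromosome 11 did not share its direction. Within 2000000 bases the annotation holds 6 other miRNA genes, of which 3 had reads. Mir301, in the family of miR-130, lies 528846 bases away and had 295 CPM in replicate 1 and 379 CPM in replicate 2, a log2 ratio of replicate 1 over replicate 2 of -0.39 (adjusted p = 4.13e-24, exact binomial test). Mir142, a miRNA of blood cells, had 89.0 and 178 CPM, a log2 ratio of -1.03 (adjusted p = 7.39e-60, exact binomial test). Mir378b, whose likeness to other Mir378 genes makes its count uncertain, had 7.39 and 11.8 CPM, a log2 ratio of -0.70 (adjusted p = 0.00562, exact binomial test). All 3 were lower in replicate 1, where Mir21a was higher. Of all genes tested, 25.3% were called in that direction and 55.7% in either. Among the 240 genes with 100 or more reads, a filter that all 3 pass, 88 were called in that direction and 85.4% in either.

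On a list of miRNAs known for a response to tissue injury, inflammation or stress, every tested gene had the direction of Mir21a. The list was chosen with earlier results of these data known. The pattern depends on which genes were listed. Mir142 and Mir214, placed on other lists, were lower in replicate 1 (log2 ratios -1.03 and -0.53). This injury and inflammation list held 16 entries, of which 15 matched a gene, 13 reached 2 CPM in each library and 13 were tested. The entry without a match was the name Mir146a, because the mouse miR-146a gene is named Mir146 in GENCODE M21. Mir146 and Mir146b were matched. Of the tested genes 11 differed and all 11 were higher in replicate 1. Of all genes tested 30.4% were called in that direction. The share was 48.8% among genes with 100 or more reads, a filter that all 11 pass. Some of the 11 are relatives, such as Mir34a and Mir34c. The median log2 ratio of the tested members was 1.02, against 0.02 over all genes tested and 0.12 over genes with 100 or more reads. When it was drawn up, Mir31, Mir34c and Mir449a were already known to be among the genes furthest apart in these libraries. The count, the shares and the median are therefore a description and no independent evidence.

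The members of that list differed widely in size. Mir31, a regulator of muscle stem cell activation, had 9340 and 1498 CPM in replicates 1 and 2, a 6.11-fold difference. Mir335, located in an intron of the imprinted gene Mest, had 7115 and 2157 CPM, or 3.23-fold. Mir34c, of a family activated by p53, had 7130 and 1298 CPM, or 5.38-fold. Mir21a, with its 2.04-fold difference, lay below these and beside Mir221 (2.02-fold). Mir155, a miRNA of activated immune cells, had 651 and 271 CPM, or 2.35-fold, and Mir34a had 1961 and 473 CPM, or 4.06-fold. Mir146 and Mir146b, which are induced by NF-kB, had 5.54 and 4.16 CPM and 3.69 and 3.24 CPM and did not pass the test (adjusted p = 0.321 and 0.785, exact binomial test). Mir223, a myeloid miRNA, had 2 reads in replicate 1 and 1 in replicate 2, and Mir494 had none in either.

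**Figure D4:**
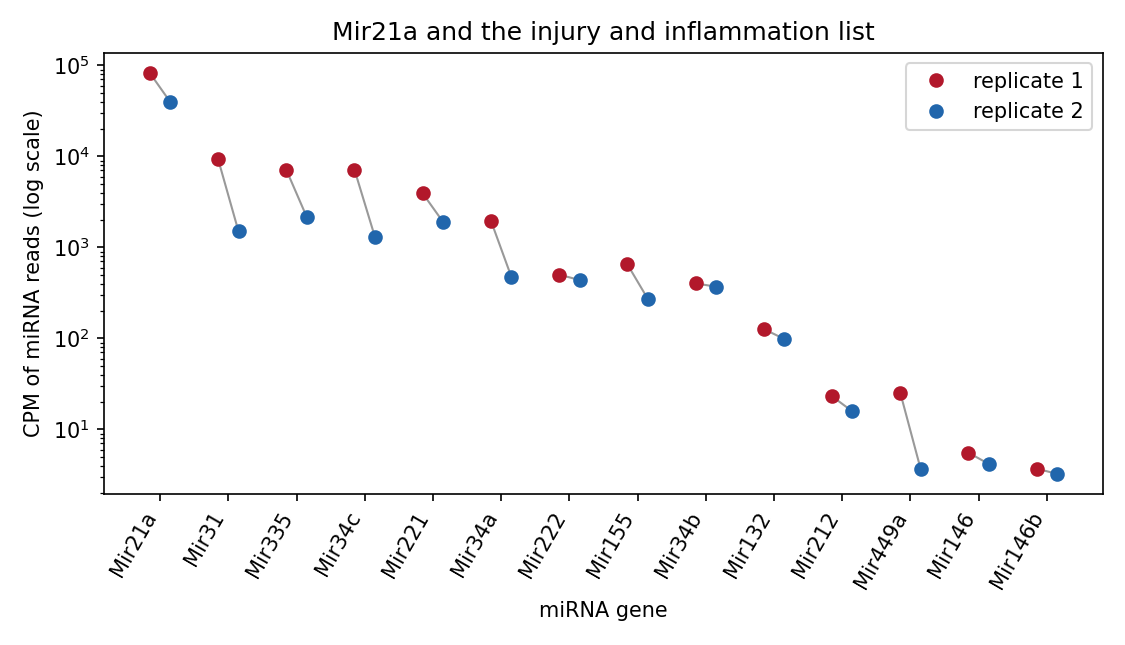
CPM (log axis) of Mir21a and of the 13 detected genes of the injury and inflammation list, ordered by mean, with replicate 1 (red, left) joined to replicate 2 (blue, right). Mir21a stands above every listed gene in both libraries, and each line runs down from replicate 1 to replicate 2.

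Mir21a had more reads than the whole list together, 2.64 times as many in replicate 1 and 4.63 times as many in replicate 2. The listed genes held 3.12% of the miRNA reads of replicate 1 and 0.852% of those of replicate 2. Against the 9 muscle genes Mir21a had 0.232 times as many reads in replicate 1 and 0.0922 times as many in replicate 2.

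Markers of other cell types that also carry miR-21 were measured beside it. The 6 fibroblast and smooth muscle genes (Mir143, Mir145a, the Mir199 genes and Mir214) were all detected and held 5.08% and 3.06% of the miRNA reads of replicates 1 and 2. All 6 differed, against 55.7% of all genes tested and 85.4% of genes with 100 or more reads, a filter that all 6 pass. Of the 6, 3 were higher in replicate 1 and 3 in replicate 2. Mir143 was 1.84-fold higher in replicate 1, while Mir214 had 2359 CPM there and 3329 CPM in replicate 2. The Mir199 genes have near-identical copies and their counts leave out multimapping reads, so they are uncertain. Mir21a had 1.62 times the reads of this list in replicate 1 and 1.29 times in replicate 2.

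Blood and endothelial markers were low. The 5 blood genes held 0.0105% and 0.0183% of the miRNA reads of replicates 1 and 2, with none at 0 in both. Of the 4 blood genes tested all differed, against 55.7% of all genes tested, 2 in each direction: Mir142 was higher in replicate 2 and so was Mir150, while Mir451a and Mir144 were higher in replicate 1. The 2 endothelial genes held 0.0219% and 0.00445%, and Mir126a, a miRNA of the vessel wall, had 217 and 42.9 CPM. Of these 2 genes, 1 differed, Mir126a, which was 4.96-fold higher in replicate 1. Mir126b, with 14 and 16 reads, did not differ (adjusted p = 0.905, exact binomial test). Of the muscle genes 9 were tested and 6 differed, 3 in each direction, a share near the 55.7% of all genes tested, with Mir206 at 340841 and 416794 CPM. By their labels both libraries came from C2C12 cultures alone, so reads of these markers are not taken as a measure of other cells. The part that other cells or muscle content may have in the Mir21a difference was not tested. In bulk samples, fewer cells of a type and less RNA per cell cannot be told apart.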

How the data were processed

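Small RNA libraries of 72 h C2C12 myotubes formed 1 group of 2, following the labels. The authors deposited raw read counts per miRNA gene, made on mm10 with annotation M21 according to their accompanying text; aligner, counter and trimming: not given in the sources used here. The deposited tables have columns of counts for strand ignored, the gene's strand and the opposite strand, told apart by their values, and 4 summary lines that name no gene (unmapped reads were 22.7% and 23.1%, multimapping 22.0% and 17.9%, no-feature 5.88% and 5.57% of all reads), left out of totals and tests. All 2202 identifiers matched GENCODE M21. CPM used the gene-strand total. Libraries were compared with an exact two-sided binomial test on TMM effective sizes (edgeR 4.0.16, R 4.3.3), Benjamini-Hochberg adjusted over genes with 10 or more reads, threshold 0.05; edgeR's quasi-likelihood test needs a condition and was left out. The test was tested on simulated data. These held counting error only, which the test assumes, so spread between replicates was not covered. Hairpins were folded with RNAfold 2.7.2. Statistics used Python 3.11.15, scipy 1.17.1 and statsmodels 0.14.6.

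Members were set by gene name and not by their values. That choice, the lists and the rules were made with earlier results of these data known. Named were the members, genes sharing the miR-21a-5p seed, the 2 genes above and 2 below Mir21a by mean CPM, the 3 genes of 1000 CPM or more with the nearest ratio, genes with reads within 2000000 bases, and up to 4 detected genes of each of 5 lists; Mir155, Mir34a, Mir146, Mir146b, Mir223, Mir494, Mir449a, Mir144 and Mir150 were named after their values were seen, as were the ranges of the Mir1a and Mir133a copies. Mir126b was also named after its values were seen. Alternatives were strand ignored, other denominators, DESeq2 1.42.0 size factors, library totals, other filters and each library left out. A label's size range below 30 has no unit. Depth sets counting error only, and the labels mention no molecular identifiers.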

Additional observations from a re-analysis of the deposited data

Results flagged for a closer look

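Some reads lay outside the miRNA gene counts, at numbers far beyond the 3 reads that a count of 0 allows. The lines for multimapping reads held 3378438 (replicate 1) and 3295854 (replicate 2), 5.41 and 8.46 times the reads of Mir21a. A further 903243 and 1027420 reads mapped outside miRNA genes. How many of these came from the Mir21 genes was not tested. A single group of 2 libraries allows no search for an outlying library.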

How the results depend on the processing

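Mir21a had the higher level in replicate 1 under all 5 other settings, with log2 ratios from 1.00 (DESeq2 size factors) to 1.06 (library totals) and adjusted p below the software's range in each; the number of genes that differed ran from 205 to 230 against 231. The share of tested genes called moves with the filter, since fewer low genes are tested: it was 31.2% with 1 or more reads (16.9% called higher in replicate 1) and 85.4% with 100 or more reads (48.8%), against 55.7% (30.4%). The coefficient of variation ran from 0.424 to 0.450 against 0.435. Without Mir206 in the denominator Mir21a averaged 96306 CPM. With all reads as the denominator it averaged 30890 CPM, with multimapping reads added 43275 CPM and with strand ignored 68873 CPM. Its rank by mean CPM was 2 with strand ignored, where Mir378a is listed at 0. With 1 library left out Mir21a ranged from 39501 to 82317 CPM, its rank from 3 to 4, its share of family reads from 99.9994% to 100%, and Mir21b and Mir21c from 0 to 0.264 CPM each. Mir21b and Mir21c stayed under 1 CPM in all settings run. No paired analysis was possible because there is 1 group; leaving out a library leaves no comparison between libraries. Depth limits Mir21b and Mir21c, whose counts cannot separate a low level from none.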
